A study of Mus musculus with 30 samples.

Results

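The 8 genes described here, Tlr2, Tlr3, Tlr4, Cd14, Myd88, Ticam1, Unc93b1 and Irak2, belong to the Toll-like receptor (TLR) pathway. They were chosen by name as receptors, a co-receptor, adaptors, a chaperone and a kinase of that pathway, with earlier results of these data known. All 8 were found by their Ensembl IDs among the 49315 genes of the count files. Their RNA was measured by bulk RNA-seq in 24 libraries of 2 mouse tumor cell lines, with 3 libraries in each of 8 groups. The lines were B16F10, a melanoma line, and 6694c2, a clone of pancreatic ductal adenocarcinoma cells from mice that carried p53+/floxed, Pdx-cre and YFP-floxed alleles among others, and both were labelled C57BL/6. Each line was cultured for 24 h with vehicle, with interferon-γ (IFNγ, 100 ng/mL), with interferon-β (IFNβ, 1000 U/mL) or with a STING agonist at 225 µg/mL, an activator of the cytosolic DNA-sensing pathway. The levels are those of tumor cell cultures, and 6694c2 stands for a single clone.

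Toll-like receptors are membrane proteins that recognize microbial products and nucleic acids. TLR2 and TLR4 act mainly at the cell surface, where TLR2 binds bacterial lipoproteins and TLR4 binds lipopolysaccharide with the help of CD14, whereas TLR3 recognizes double-stranded RNA in endosomes. Most receptors of the family signal through the adaptor MyD88 and kinases of the IRAK family, including IRAK2, toward NF-κB, while TLR3 signals through TRIF, the protein encoded by Ticam1, which also leads to type I interferon. UNC93B1 is the chaperone that carries the nucleic acid-sensing receptors to endosomes. Macrophages and dendritic cells are the best known users of this pathway, and many epithelial and tumor cells express part of it.

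Library totals ranged from 15543131 to 32266795 reads. Melanocyte marker genes summed to at least 15723 CPM (counts scaled to library size) in every B16F10 library, and epithelial markers to at least 12901 CPM in every 6694c2 library, so the lines matched their labels. Each line also carried a small signal of genes of the other line, estimated at 0.152% to 1.02% of the 6694c2 level in B16F10 and at 0.215% to 0.974% of the B16F10 level in 6694c2, and it was highest in the B16F10 libraries with STING agonist (0.814% to 1.02%). Low reads of immune genes were present throughout: 4 B cell genes summed to 4.50 to 16.3 CPM in B16F10 and to 6.50 to 15.8 CPM in 6694c2. A list of 10 macrophage genes summed to 11.7 to 17.2 CPM in B16F10, mostly from Cd68 and Lyz2. In 6694c2 that list summed to 2.51 to 4.001 CPM. Of its genes, Adgre1 had a mean of at most 0.0894 CPM in B16F10 and 0.158 CPM in 6694c2. Group means of Ptprc, also of that list, were 1.14 to 1.36 CPM in B16F10 and 1.40 to 1.69 CPM in 6694c2. A list of 4 T cell genes summed to at most 0.202 CPM in B16F10 and to 2.925 to 6.157 CPM in 6694c2. In every 6694c2 group 3 of these 4 genes had means under 1 CPM, so a single gene gave most of that sum. With vehicle, IFNβ and STING agonist those 3 had 0 reads there, and with IFNγ 2 of them had 0 reads. In a culture sequenced as a whole, RNA from fewer cells and less RNA per cell cannot be told apart.

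Too few reads were found for 2 members in B16F10, where Tlr2 had 76 reads in all 12 libraries and Cd14 had 38, with fewer than 10 reads on average in every group. All 8 members had enough reads in 6694c2 by that limit, although Unc93b1 had 340 and Tlr2 432 there in total. The other 6 members had between 4240 and 22530 reads in B16F10. All 8 passed the filter on low counts, which required 10 reads over the 24 libraries.

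**Figure D1:**
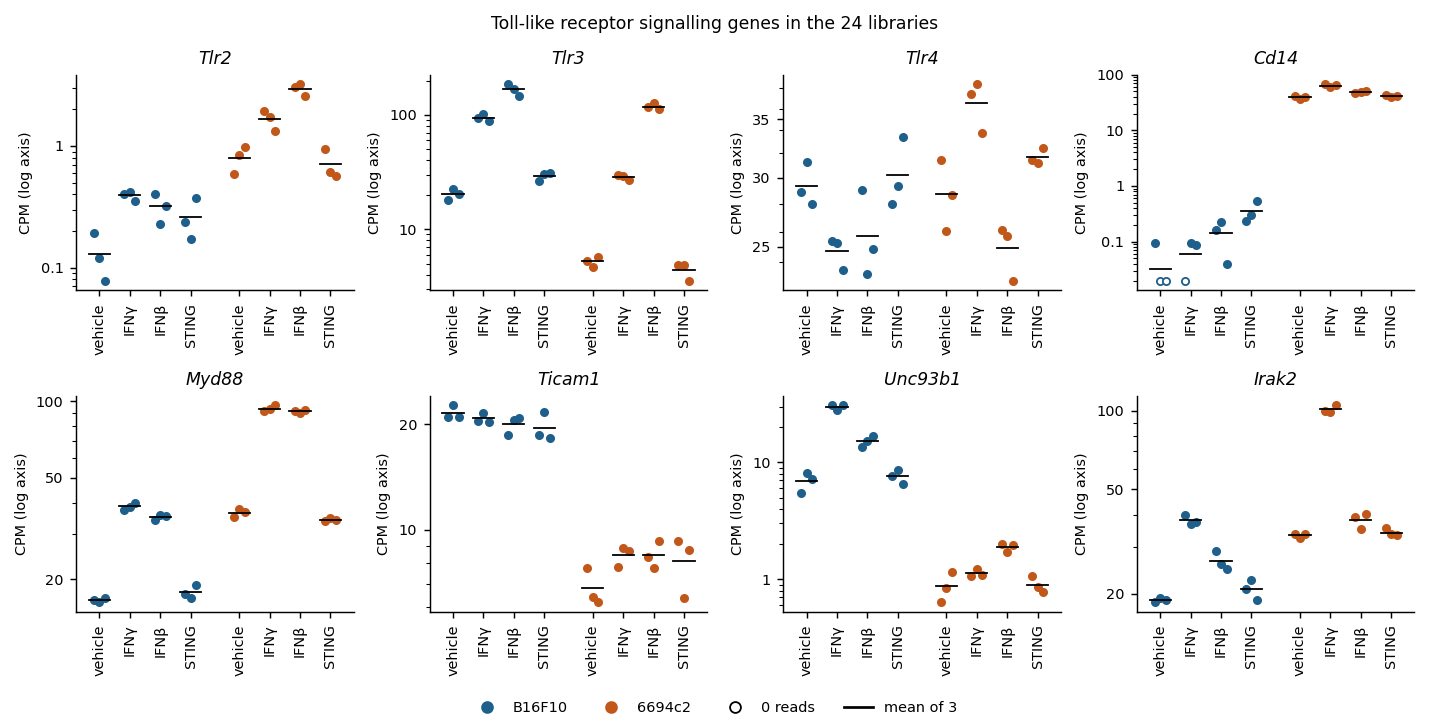
CPM (log axis, own range in each panel) of the 8 genes in the 24 libraries, with a filled point per library, an open point at the bottom for a library with 0 reads and a line at the mean of 3. Tlr3 spans from 3.56 to 185 CPM and rises with IFNγ and IFNβ in both lines, Cd14 stays under 1 CPM in B16F10, and Ticam1 stays near its vehicle level.

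The sequence before an annotated start of transcription is shown, in whole or in part, for some members that moved with interferon and for a member with no called change. RefSeq promoters (GRCm38.p6, 250 bases before the start) were found for 5 of the 8 genes, Tlr2, Tlr3, Myd88, Ticam1 and Irak2, while Tlr4, Cd14 and Unc93b1 had no entry. Letters were searched on both strands for the interferon-stimulated response element (GAAANNGAA, in 7.13% of 32851 promoters), the core of interferon regulatory factor sites, which can overlap it (AANNGAAA, in 21.3%, a spelling chosen after the sequences had been seen) and a κB site of NF-κB (GGNNNTTCC, in 15.7%). Capitals mark matches to any of these. The Myd88 window (chr9:119340019-119340268, minus strand) held the interferon-stimulated response element at bases 40 to 32 before the start, overlapping the core of interferon regulatory factor sites at bases 38 to 31. The Ticam1 window (chr17:56276768-56277017, minus strand) and the Irak2 window held no match. Irak2 rose with both interferons in both lines, so a match did not separate the members that moved, and its sequence is not printed. Of the 5 windows, 1 held the interferon-stimulated response element, 3 the interferon regulatory factor core and 2 the κB site. All 250 bases of the Myd88 window lie inside its annotated gene and 23 are in exons. In the Ticam1 window 19 bases are in exons of its annotated gene. In Tlr3 a κB match lay at bases 210 to 202 (chr8:45410572-45410600, minus strand, with 10 bases on each side) and the interferon regulatory factor core at bases 59 to 52 (chr8:45410422-45410449), and 178 of the 250 bases of that window are in exons of other annotated Tlr3 transcripts (GENCODE M21), so only the matches are printed. The Tlr2 window also held matches to the κB site and to the interferon regulatory factor core. Of its 250 bases 159 are in exons of its annotated gene. A match of letters is a description of the sequence and not a binding site.
Myd88: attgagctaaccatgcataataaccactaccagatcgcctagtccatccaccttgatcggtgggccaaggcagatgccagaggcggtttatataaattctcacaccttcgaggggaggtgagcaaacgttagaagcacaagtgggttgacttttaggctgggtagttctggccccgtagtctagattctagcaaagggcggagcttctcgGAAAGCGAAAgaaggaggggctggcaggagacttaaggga
Ticam1: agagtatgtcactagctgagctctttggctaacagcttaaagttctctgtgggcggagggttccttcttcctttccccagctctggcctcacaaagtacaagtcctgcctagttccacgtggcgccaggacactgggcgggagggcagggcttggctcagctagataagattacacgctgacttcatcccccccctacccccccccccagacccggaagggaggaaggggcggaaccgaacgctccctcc
Tlr3 κB match: gttgtttctgGGAGTTTCCtgcttttgag
Tlr3 interferon regulatory factor core: agtgaatggcTTTCACTTtgtttagaca

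With vehicle alone the lines expressed different parts of the pathway. Of the 8 members, 4 were higher in 6694c2 than in B16F10 (Cd14, Tlr2, Myd88 and Irak2), 3 were lower (Tlr3, Ticam1 and Unc93b1) and Tlr4 was not called, beside 58% of the 21138 genes tested that differed between the lines. Per transcript length, in FPKM (CPM divided by exon length in kilobases), the order in B16F10 was Ticam1 (7.19 ± 0.33, SD, n = 3), Myd88 (6.45 ± 0.10), Tlr4 (5.29 ± 0.30), Irak2 (4.28 ± 0.075), Tlr3 (3.88 ± 0.44), Unc93b1 (2.45 ± 0.48), Tlr2 (0.0431 ± 0.019) and Cd14 (0.0203 ± 0.035). Irak2 and Tlr3, and likewise Tlr2 and Cd14, did not differ beyond their spread in that order. In 6694c2 it was Cd14 (24.9 ± 1.2), Myd88 (14.2 ± 0.56), Irak2 (7.57 ± 0.14), Tlr4 (5.17 ± 0.48), Ticam1 (2.27 ± 0.28), Tlr3 (1.01 ± 0.10), Unc93b1 (0.309 ± 0.092) and Tlr2 (0.265 ± 0.066), where the last pair did not differ beyond its spread.

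Tlr3, the endosomal receptor for double-stranded RNA (Ensembl ENSMUSG00000031639, GRCm38 chr8:45395665-45411080, minus strand), had the largest called changes with interferon. In B16F10 it was at 17.9, 22.5 and 20.2 CPM with vehicle, 93.2, 101 and 89.1 CPM with IFNγ, 185, 168 and 148 CPM with IFNβ and 26.5, 30.2 and 30.8 CPM with STING agonist. In 6694c2 it was at 5.31, 4.69 and 5.73 CPM with vehicle, 30.1, 29.1 and 26.9 CPM with IFNγ, 116, 126 and 112 CPM with IFNβ and 4.85, 4.87 and 3.56 CPM with STING agonist. Every library with interferon lay above every vehicle library of its line, and the same held for STING agonist in B16F10, while the 6694c2 libraries with STING agonist overlapped vehicle. IFNγ raised Tlr3 by a log2 fold change of 2.22 ± 0.07 (SE) in B16F10 (adjusted p = 2.6e-107) and 2.47 ± 0.12 in 6694c2 (adjusted p = 4.5e-22). IFNβ raised it by 3.05 ± 0.07 in B16F10 (8.29-fold, adjusted p = 1.9e-150) and by 4.53 ± 0.11 in 6694c2 (23.1-fold, adjusted p = 1.0e-32). Since the vehicle level in 6694c2 was 0.259 times that in B16F10 (log2 difference -1.95 ± 0.13, adjusted p = 1.1e-17), the groups with IFNβ ended closer together, at means of 167 and 118 CPM. The antisense gene Gm45542, which overlaps Tlr3, had a mean of at most 0.129 CPM in any group.

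The effect of IFNβ on Tlr3 was larger in 6694c2 by 1.45 ± 0.15 on the log2 scale (adjusted p = 1.1e-09), whereas the difference for IFNγ was not called (0.23, 95% interval -0.09 to 0.54, adjusted p = 0.452). With STING agonist Tlr3 rose by 0.52 ± 0.08 in B16F10 (1.44-fold, adjusted p = 9.3e-09) and was not called in 6694c2 (-0.24, 95% interval -0.51 to 0.03, adjusted p = 0.685), and the lines differed by -0.78 ± 0.18 (adjusted p = 0.0072). Without replicate 3 of 6694c2 with STING agonist that difference was -0.64 (adjusted p = 0.054). Ifit1, a classical interferon-induced gene used as a check, had means of 53.0 CPM with vehicle and 240.2 CPM with STING agonist in B16F10, and 2.26 and 3.46 CPM in 6694c2. Summed over the 4 check genes (Ifit1, Isg15, Gbp2 and Irf1), B16F10 libraries went from 119 to 143 CPM with vehicle to 465 to 505 CPM with STING agonist, and 6694c2 libraries from 47.9 to 65.6 CPM down to 34.9 to 42.9 CPM, where Gbp2 fell (log2 -1.41, adjusted p = 7.2e-12).

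Tlr2, the receptor for bacterial lipoproteins (ENSMUSG00000027995, chr3:83836272-83841767, minus strand), was low in 6694c2 and near the limit of detection in B16F10. The 6694c2 libraries held 0.584, 0.837 and 0.9753 CPM with vehicle, 1.94, 1.72 and 1.33 CPM with IFNγ, 3.03, 3.21 and 2.58 CPM with IFNβ and 0.945, 0.613 and 0.563 CPM with STING agonist. All libraries with either interferon lay above vehicle, and those with IFNβ lay above those with IFNγ. Tlr2 rose in 6694c2 by 1.05 ± 0.32 with IFNγ (adjusted p = 0.019) and by 1.91 ± 0.31 with IFNβ (adjusted p = 2.1e-06). The IFNγ call rested on single libraries, since the adjusted p was 0.098 without replicate 1 of vehicle and 0.083 without replicate 1 of IFNγ. In B16F10 each library had 2 to 11 reads, with 9 reads in the 3 vehicle libraries, 28 with IFNγ, 24 with IFNβ and 15 with STING agonist. The IFNγ and IFNβ libraries of B16F10 all lay above vehicle, but neither difference was called (log2 1.58, adjusted p = 0.108, and 1.30, adjusted p = 0.220). With the stricter filterByExpr minimum on counts the IFNγ difference was called (1.59, adjusted p = 0.0497). With vehicle, 6694c2 held 6.32 times the Tlr2 CPM of B16F10 (95% exact interval 3.03 to 14.8, counting error only; 41 against 9 reads).

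Tlr4, the lipopolysaccharide receptor (ENSMUSG00000039005, chr4:66827584-66930284, plus strand), had the narrowest range across the lines. B16F10 had 28.9, 31.2 and 28.004 CPM with vehicle, 25.4, 25.2 and 23.5 CPM with IFNγ, 29.1, 23.2 and 24.8 CPM with IFNβ and 27.97, 29.4 and 33.4 CPM with STING agonist. Vehicle-treated 6694c2 libraries were at 31.4, 26.1 and 28.7 CPM, against 37.4, 38.4 and 33.7 CPM with IFNγ, 26.1, 25.7 and 22.9 CPM with IFNβ and 31.4, 31.2 and 32.5 CPM with STING agonist. The IFNγ libraries lay below all vehicle libraries in B16F10 and above all of them in 6694c2, and the other groups overlapped vehicle. IFNγ lowered Tlr4 in B16F10 by a log2 change of -0.25 ± 0.08 (adjusted p = 0.014) and raised it in 6694c2 by 0.36 ± 0.09 (adjusted p = 0.0028), and the difference between the lines was 0.59 ± 0.12 (adjusted p = 8.5e-04). The decrease in B16F10 was lost without replicate 2 of vehicle (adjusted p = 0.127) or replicate 3 of IFNγ (adjusted p = 0.083). The IFNβ change in B16F10 was not called, but was without replicate 1 of IFNβ (-0.29, adjusted p = 0.0073). With vehicle the lines did not differ by this test (-0.03, 95% interval -0.21 to 0.14, adjusted p = 0.772).

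Cd14, the co-receptor that delivers lipopolysaccharide to TLR4 (ENSMUSG00000051439, chr18:36725074-36726736, minus strand), separated the lines. The 6694c2 libraries held 40.7, 37.1 and 39.6 CPM with vehicle, 66.9, 59.8 and 64.0 CPM with IFNγ, 47.0, 49.6 and 51.8 CPM with IFNβ and 43.0, 38.9 and 40.6 CPM with STING agonist. The interferon libraries did not overlap vehicle, and those with STING agonist did. Cd14 rose in 6694c2 by 0.72 ± 0.08 with IFNγ (1.64-fold, adjusted p = 8.7e-10) and by 0.37 ± 0.08 with IFNβ (1.29-fold, adjusted p = 3.0e-04). In B16F10 it had 2, 0 and 0 reads with vehicle, 0, 2 and 2 with IFNγ, 4, 6 and 1 with IFNβ and 4, 7 and 10 with STING agonist. With vehicle the ratio of Cd14 CPM in 6694c2 over B16F10 was 1395 (95% exact interval 386 to 11529, counting error only, from 2011 against 2 reads).

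The mean level of Cd14 in the B16F10 groups had the same order as the signal of other 6694c2 genes in the same libraries. That signal was measured on 152 genes that are at 50 CPM or more in every 6694c2 group and under 2% of that in every B16F10 group, none of them a TLR pathway gene or marker. Its mean share was 0.195% of the 6694c2 vehicle level with vehicle, 0.289% with IFNγ, 0.352% with IFNβ and 0.883% with STING agonist, and the share multiplied by the Cd14 level of 6694c2 gave 240% of the Cd14 measured in B16F10 with vehicle, 187% with IFNγ, 95.6% with IFNβ and 96.6% with STING agonist. Within the STING agonist libraries the order was not the same, since replicate 1 had the highest share (1.02%) and the lowest Cd14 (0.239 CPM). Against B16F10 vehicle the STING agonist libraries were all higher, with a ratio of CPM of 12.8 (95% exact interval 3.12 to 112), but the gene was not called (adjusted p = 0.067). The STING effect on Cd14 differed between the lines by -3.38 ± 1.096 (adjusted p = 0.0066), and with the signal of the other line subtracted from the counts the difference was -1.87 (adjusted p = 0.644). It was also lost without replicate 2 or replicate 3 of B16F10 vehicle (adjusted p = 0.0594 and 0.0591) or replicate 3 of STING agonist (adjusted p = 0.072). For the other 7 members the same product was taken from the vehicle level of the other line. It was at most 4.69% of the measured level, for Unc93b1 in 6694c2 with vehicle. Higher levels in treated groups of the other line were not used for it. Where the signal came from was not tested.

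**Figure D2:**
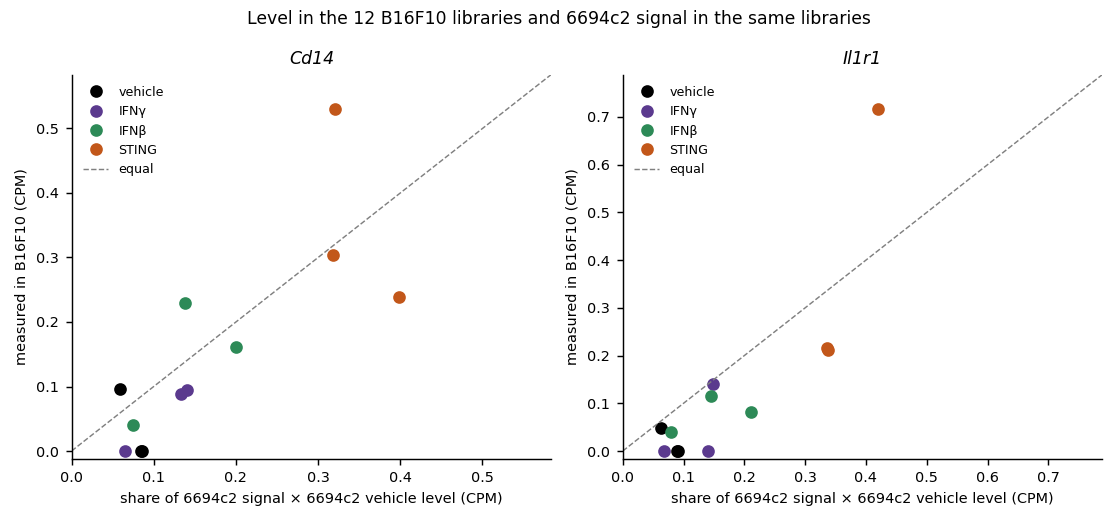
Measured CPM (vertical axis) of Cd14 and of Il1r1, a receptor that also uses MyD88, in each of the 12 B16F10 libraries against the share of 6694c2 signal in that library multiplied by the 6694c2 vehicle level (horizontal axis, CPM). The 3 libraries with STING agonist sit at 0.239 to 0.531 CPM for Cd14, at the right of both panels, and most points at the left lie below the dashed line of equal values.

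Myd88, the adaptor shared by most TLRs and the interleukin-1 receptor family (ENSMUSG00000032508, chr9:119335934-119341411, minus strand), gave nearly the same level with both interferons. It was at 16.6, 16.3 and 16.9 CPM with vehicle in B16F10, 37.5, 38.4 and 40.0 CPM with IFNγ, 34.3, 35.8 and 35.3 CPM with IFNβ and 17.5, 16.9 and 19.0 CPM with STING agonist. The 6694c2 values were 35.01, 37.9 and 36.6 CPM with vehicle, 91.1, 93.4 and 96.2 CPM with IFNγ, 91.4, 90.1 and 92.0 CPM with IFNβ and 34.0, 34.8 and 34.2 CPM with STING agonist. In both lines all interferon libraries lay above vehicle with no overlap, while those with STING agonist all lay just above vehicle in B16F10 and just below it in 6694c2 and were not called (log2 0.09 and -0.09). The log2 fold changes were 1.21 ± 0.08 with IFNγ and 1.09 ± 0.08 with IFNβ in B16F10 (adjusted p = 3.6e-36 and 5.4e-30), and 1.37 ± 0.07 and 1.35 ± 0.07 in 6694c2 (adjusted p = 8.2e-20 and 1.1e-19). IFNβ over IFNγ was not called in B16F10 (-0.13, 95% interval -0.28 to 0.03) or in 6694c2 (-0.02, 95% interval -0.16 to 0.12). Since 6694c2 began 2.20-fold higher with vehicle (adjusted p = 6.4e-18), its vehicle libraries lay at about the level that B16F10 reached with interferon. Acaa1a, a peroxisomal enzyme gene that overlaps Myd88 on the opposite strand, had 56.6 CPM in B16F10 and 95.6 CPM in 6694c2 with vehicle and rose with IFNβ by 0.36 ± 0.07 and 0.60 ± 0.07, but was not called with IFNγ. Strand use in counting is not given in the sources used here, so reads of the shared stretch cannot be assigned with certainty.

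Ticam1, which encodes the TLR3 adaptor TRIF (ENSMUSG00000047123, chr17:56269319-56276786, minus strand), was the member with no called change against vehicle in any of the 6 comparisons. B16F10 libraries held 20.95, 22.7 and 20.96 CPM with vehicle, 20.5, 21.6 and 20.3 CPM with IFNγ, 18.6, 20.5 and 20.8 CPM with IFNβ and 18.6, 21.7 and 18.3 CPM with STING agonist. In 6694c2 the values were 7.76, 6.42 and 6.22 CPM with vehicle, 7.84, 8.83 and 8.71 CPM with IFNγ, 8.35, 7.78 and 9.25 CPM with IFNβ and 9.30, 6.38 and 8.73 CPM with STING agonist. The interferon libraries of 6694c2 all lay just above vehicle, by log2 0.33 (95% interval 0.04 to 0.62, adjusted p = 0.144) with IFNγ and 0.35 (95% interval 0.07 to 0.64, adjusted p = 0.081) with IFNβ. Without replicate 1 of vehicle the IFNβ change was called (0.46, adjusted p = 0.031). In B16F10 the IFNβ libraries all lay just below vehicle and the IFNγ libraries overlapped it, and the intervals were -0.23 to 0.12 with IFNγ and -0.28 to 0.08 with IFNβ. So the receptor Tlr3 rose with interferon in both lines, and its adaptor gene differed between the lines (log2 -1.66 ± 0.12 in 6694c2 against B16F10, adjusted p = 6.8e-16).

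Unc93b1, the chaperone of the endosomal receptors (ENSMUSG00000036908, chr19:3935186-3949340, plus strand), rose more with IFNγ than with IFNβ in B16F10, and in 6694c2 was called with IFNβ. B16F10 was at 5.50, 8.18 and 7.16 CPM with vehicle, 30.7, 28.2 and 30.7 CPM with IFNγ, 13.5, 15.2 and 16.9 CPM with IFNβ and 7.71, 8.66 and 6.53 CPM with STING agonist. In 6694c2 it was at 0.642, 0.837 and 1.16 CPM with vehicle, 1.06, 1.23 and 1.09 CPM with IFNγ, 2.00, 1.72 and 1.95 CPM with IFNβ and 1.06, 0.865 and 0.774 CPM with STING agonist. In B16F10 both interferons separated from vehicle and from each other, and in 6694c2 the IFNβ libraries separated from vehicle and the IFNγ libraries overlapped it. Unc93b1 rose in B16F10 by 2.09 ± 0.11 with IFNγ (4.26-fold, adjusted p = 5.9e-58) and by 1.13 ± 0.11 with IFNβ (2.18-fold, adjusted p = 1.3e-19). In 6694c2 it rose by 1.14 ± 0.31 with IFNβ (adjusted p = 0.0049) and was not called with IFNγ (0.37, 95% interval -0.31 to 1.04, adjusted p = 0.599). IFNβ over IFNγ was not called in 6694c2 (0.78, 95% interval 0.20 to 1.36, adjusted p = 0.061), but was with the filterByExpr minimum (0.76, adjusted p = 0.0496). The difference of the IFNγ effects, 6694c2 minus B16F10, was -1.75 ± 0.32 (adjusted p = 2.4e-04). For IFNβ the difference between the lines was -0.01 (95% interval -0.60 to 0.59).

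Irak2, a kinase recruited to MyD88 (ENSMUSG00000060477, chr6:113638467-113695026, plus strand), responded more to IFNγ than to IFNβ in both lines. B16F10 had 18.6, 19.3 and 18.8 CPM with vehicle, 39.8, 36.9 and 37.7 CPM with IFNγ, 28.98, 25.95 and 24.9 CPM with IFNβ and 20.7, 22.6 and 18.9 CPM with STING agonist. The 6694c2 libraries held 33.7, 32.6 and 33.8 CPM with vehicle, 99.3, 99.3 and 105 CPM with IFNγ, 39.2, 35.2 and 40.3 CPM with IFNβ and 35.5, 33.7 and 33.4 CPM with STING agonist. All interferon libraries lay above vehicle, and in each line the IFNγ libraries lay above the IFNβ libraries. IFNγ raised Irak2 by 1.01 ± 0.08 in B16F10 (2.02-fold, adjusted p = 9.5e-27) and by 1.61 ± 0.08 in 6694c2 (3.06-fold, adjusted p = 2.0e-21), and the effect was larger in 6694c2 by 0.59 ± 0.11 (adjusted p = 1.1e-04). IFNβ raised it by 0.50 ± 0.09 in B16F10 (adjusted p = 1.9e-07). In 6694c2 the IFNβ change of 0.23 ± 0.08 (1.17-fold, adjusted p = 0.027) rested on single libraries, with an adjusted p of 0.103, 0.056, 0.084 and 0.129 without replicate 2 or 3 of vehicle or replicate 1 or 3 of IFNβ, and of 0.090 with only the compared groups in the fit. The small genes Gm43964, Gm43963 and Gm43912 that overlap Irak2 had means of at most 0.187 CPM.

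**Figure D3:**
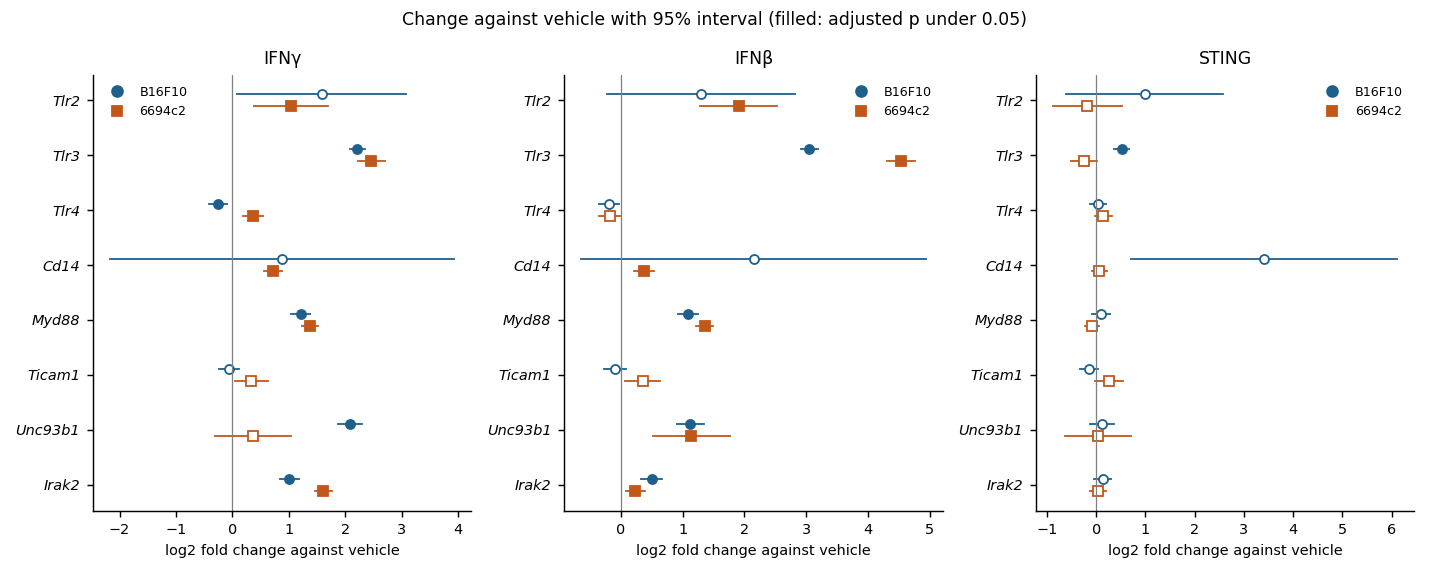
Log2 fold change against vehicle (horizontal axis) with its 95% interval for each gene, in 3 panels by treatment, with B16F10 as circles and 6694c2 as squares, filled where the adjusted p is under 0.05. Tlr3 has the largest called changes with IFNβ (3.05 and 4.53), Myd88 sits between 1.09 and 1.37 in both interferon panels, and with STING agonist the filled point is Tlr3 in B16F10.

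Counted over the members, IFNγ changed 5 of 8 in B16F10, with 4 higher (Tlr3, Unc93b1, Myd88 and Irak2) and Tlr4 lower, beside 22.8% of all genes tested. IFNβ changed 4 of 8, the same 4 and all higher, beside 24% of all genes called and 12.7% called higher. In 6694c2, 6 of 8 rose with IFNγ (Tlr2, Tlr3, Tlr4, Cd14, Myd88 and Irak2), beside 13.5% of all genes called and 7.89% called higher, and 6 of 8 rose with IFNβ (Tlr2, Tlr3, Cd14, Myd88, Unc93b1 and Irak2), beside 18.2% called and 10.4% called higher. The median log2 fold change of the members was 1.11 with IFNγ and 1.11 with IFNβ in B16F10 and 0.88 and 0.76 in 6694c2, against medians of all genes between 0 and 0.019. With STING agonist 1 of 8 rose in B16F10, beside 3.46% of all genes called and 1.93% called higher. The medians there were 0.13 for the members and 0 for all genes. With the signal of the other line subtracted, 516 of all genes were called with STING agonist in B16F10, against 732 without subtraction. In 6694c2 the edgeR test called 0 of 8 with STING agonist, beside 0.36% of all genes, with 0 at an unadjusted p under 0.05 and 0 by DESeq2. The 3 treatments of a line share its vehicle libraries, so these comparisons are not independent of each other. The members were chosen with earlier results of these data known, so their counts beside the shares of all genes are a description.

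The interferons themselves were compared within each line, for these doses, which are in different units. IFNβ gave a higher level than IFNγ for Tlr3 and a lower level for Unc93b1 and Irak2 in B16F10, 3 of 8 members beside 14.5% of all genes. The log2 differences were 0.83 ± 0.06, -0.96 ± 0.10 and -0.51 ± 0.08. In 6694c2, 5 of 8 differed, beside 13.9% of all genes, with IFNβ above IFNγ for Tlr3 (2.07 ± 0.08) and Tlr2 (0.86 ± 0.26) and below it for Irak2 (-1.38 ± 0.07), Tlr4 (-0.53 ± 0.09) and Cd14 (-0.34 ± 0.08). The Tlr2 difference had an adjusted p of 0.016, and of 0.123 and 0.055 without replicate 3 of IFNγ or replicate 2 of IFNβ. Tlr3 was thus the member higher with IFNβ in both lines and Irak2 the member lower with IFNβ in both.

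The effect of a treatment was compared between the lines by an interaction term over all 24 libraries. For IFNγ it was called for Tlr4, Irak2 and Unc93b1, 3 of 8 members beside 9.47% of all genes. For IFNβ it was called for Tlr3, 1 of 8 beside 12.1%. For STING agonist it was called for Tlr3 and Cd14, 2 of 8 beside 2.12%, of which Cd14 has too few reads in B16F10. With the signal of the other line subtracted, the STING agonist term was called for 169 of all genes, against 449 without subtraction. For IFNβ, DESeq2 called 3 of 8, adding Myd88 (0.24, adjusted p = 0.032) and Irak2 (-0.30, adjusted p = 0.025), beside 3120 of the 12532 genes it tested.

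**Figure D4:**
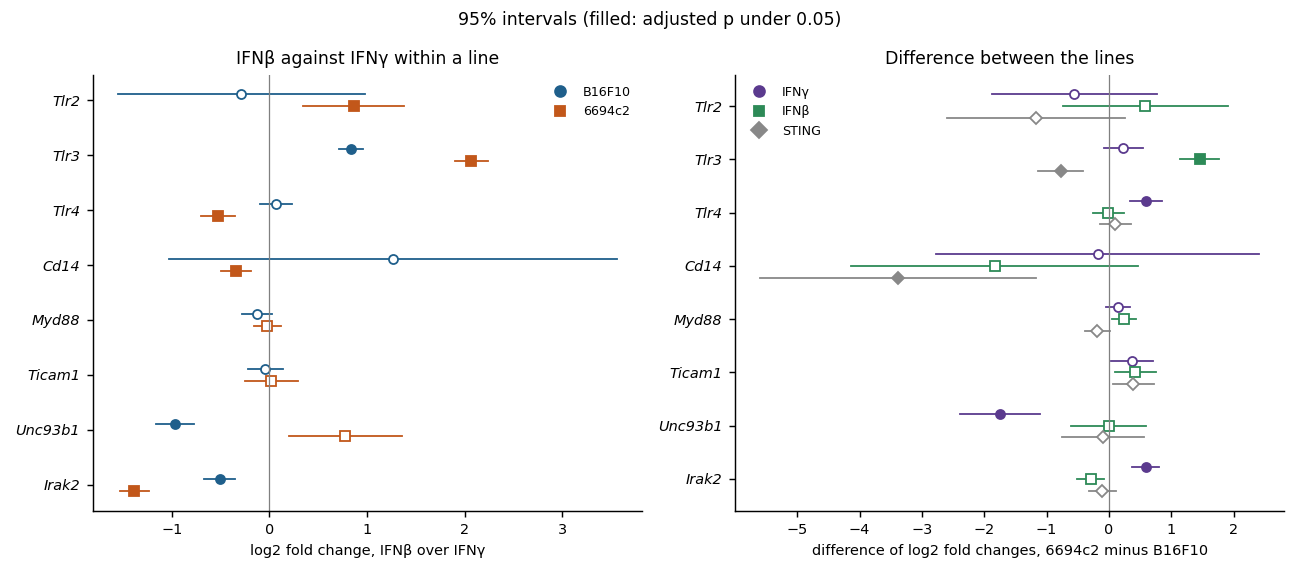
Left, log2 fold change of IFNβ over IFNγ within B16F10 (circles) and 6694c2 (squares); right, difference of the log2 fold changes against vehicle, 6694c2 minus B16F10, for IFNγ, IFNβ and STING agonist, with 95% intervals and filled symbols where the adjusted p is under 0.05. Tlr3 lies to the right in both lines on the left (0.83 and 2.07) and Irak2 to the left (-0.51 and -1.38), and the widest intervals belong to Tlr2 and Cd14, which have few reads in B16F10.

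The rest of the pathway was read from a list of 51 other genes, 48 of which passed the filter. In B16F10, 13 of the 48 were called with IFNγ, 10 higher and 3 lower, beside 22.8% of all genes, and 14 with IFNβ, 11 higher and 3 lower, beside 24%, so the list lay near the share of all genes there. In 6694c2, 13 were called with IFNγ, 12 higher and 1 lower, beside 13.5% of all genes, and 12 with IFNβ, 10 higher and 2 lower, beside 18.2%. With STING agonist 1 rose (Il1r1) and 1 fell (Nfkb1) in B16F10, beside 3.46% of all genes, and 1 rose (Irf7) in 6694c2, beside 0.36%. The count of 2 in B16F10 was 0 with the signal of the other line subtracted, 1 with DESeq2, 1 with the replicate block, and 0 to 1 whenever any library was left out. The median log2 fold change of the list was between 0.11 and 0.17 with either interferon in either line, so most of its genes moved little.

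Among the other receptors, Tlr1, the partner of TLR2, had means above 1 CPM in B16F10, at 3.41 ± 0.39 CPM (SD, n = 3) in B16F10 with vehicle, 5.68 ± 0.97 CPM with IFNγ and 5.81 ± 0.55 CPM with IFNβ. It rose in B16F10 by 0.74 ± 0.17 with IFNγ and 0.78 ± 0.16 with IFNβ (adjusted p = 9.2e-05 and 2.9e-05), and stayed at or under 0.910 CPM in every 6694c2 group. Tlr5, Tlr6, Tlr7, Tlr8, Tlr9, Tlr12 and Tlr13 had means under 1 CPM in all 8 groups, and Tlr11 had 0 reads in all 24 libraries. Of these, Tlr5, the flagellin receptor, was called with IFNβ in B16F10 (1.72 ± 0.64, adjusted p = 0.023), at 0.567 CPM. Ly96, whose product MD-2 completes the TLR4 receptor, and Tirap, an adaptor that joins MyD88 to TLR2 and TLR4, were expressed in both lines, Ly96 at 4.26 CPM in B16F10 and 3.26 CPM in 6694c2 with vehicle and Tirap at 15.8 and 32.6 CPM, and neither was called against vehicle.

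The kinases and ubiquitin enzymes were the most numerous role, with 16 genes tested. In B16F10, 6 of them rose and 1 fell with IFNγ, beside 22.8% of all genes called, and 5 rose and 1 fell with IFNβ, beside 24%. In 6694c2, 4 rose with IFNγ, beside 13.5%, and 4 rose and 1 fell with IFNβ, beside 18.2%. Tbk1, the kinase downstream of TRIF that activates IRF3, rose in all 4 of these comparisons, by 0.61 ± 0.07 and 0.32 ± 0.07 in B16F10 and by 0.32 ± 0.08 and 0.43 ± 0.08 in 6694c2 with IFNγ and IFNβ. Among the transcription factors Irf7 and Irf5 changed most. Irf7, an interferon-induced factor acting downstream of TLR7 and TLR9, went in 6694c2 from a mean of 0.9499 CPM with vehicle to 76.9 CPM with IFNγ, 962 CPM with IFNβ and 2.94 CPM with STING agonist (log2 6.34 ± 0.21, 10.01 ± 0.21 and 1.62 ± 0.23). In B16F10 it went from 0.916 CPM to 1.49, 2.61 and 1.095 CPM, called with IFNβ (log2 1.49 ± 0.30), and the IFNβ effect was larger in 6694c2 by 8.50 ± 0.44 (adjusted p = 4.3e-16). The B16F10 libraries with IFNβ carried a mean 6694c2 signal of 0.352%. The subtraction of that signal used the 6694c2 level of Irf7 with vehicle and not the 962 CPM with IFNβ. How much of the 2.61 CPM in B16F10 such signal made up was therefore not tested. Irf5, which acts downstream of MyD88, rose in B16F10 by 2.77 ± 0.20 with IFNγ and 2.98 ± 0.20 with IFNβ, from 1.24 CPM, and in 6694c2 by 2.03 ± 0.49 with IFNβ, from 0.373 CPM.

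Among inhibitors, Cyld, a deubiquitinase that limits NF-κB, rose by 1.11 ± 0.07 with IFNγ in B16F10. Of the interleukin receptors that also use MyD88, the subunits of the interleukin-18 receptor rose in 6694c2 with IFNγ, Il18r1 by 2.47 ± 0.41 to 2.57 CPM and Il18rap by 2.29 ± 0.09 to 58.7 CPM. Il1rap, the shared interleukin-1 accessory chain, rose there by 1.42 ± 0.23 with IFNβ. In the same line 1 gene of this role was called lower with each interferon. Il1r1 was at a mean of 41.3 CPM in 6694c2 with vehicle, 25.1 CPM with IFNγ and 24.9 CPM with IFNβ, and all interferon libraries lay below vehicle. The Il1r1 call with STING agonist in B16F10 (4.27 ± 1.83, adjusted p = 0.033) rested on 12, 5 and 4 reads against 1, 0 and 0, and the 6694c2 signal in those libraries multiplied by the 6694c2 level of Il1r1 (41.3 CPM) amounted to 95.4% of it, against 506%, 254% and 184% of the lower levels with vehicle, IFNγ and IFNβ.

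**Figure D5:**
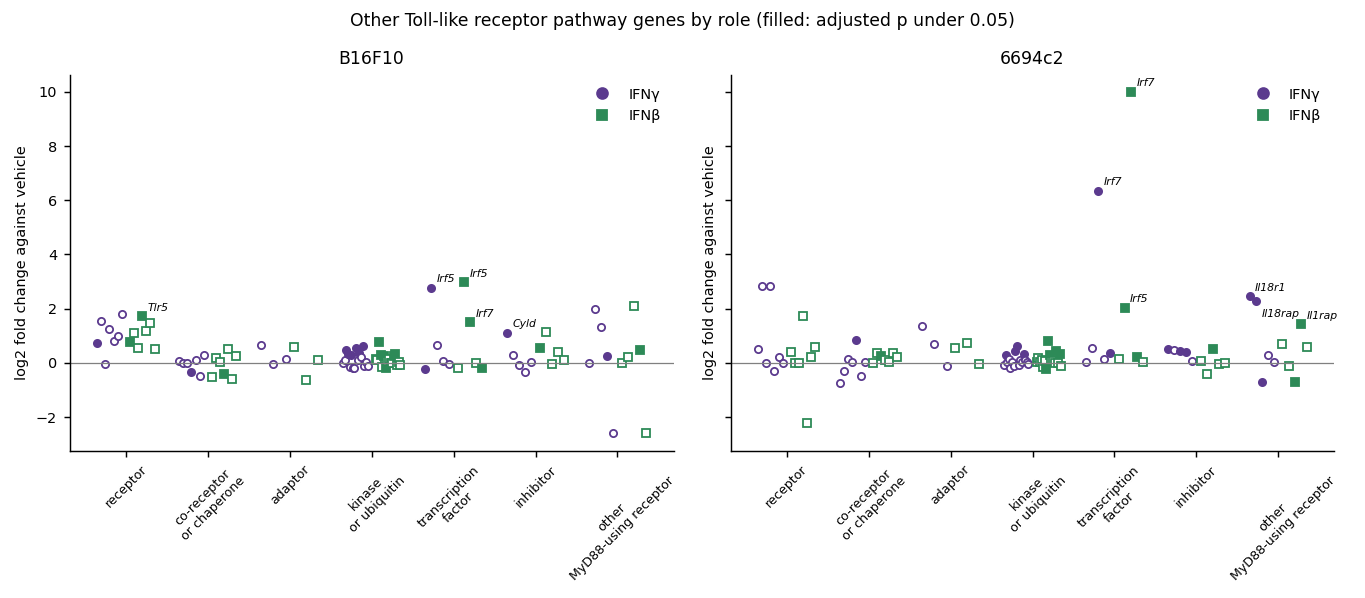
Log2 fold change against vehicle (vertical axis) of the 48 other pathway genes tested, grouped by role, with IFNγ as circles and IFNβ as squares, filled where the adjusted p is under 0.05, and named where a called change is over 1 on the log2 scale. Most points lie near 0, Irf7 stands at 6.34 and 10.01 in 6694c2, and Irf5 at 2.77 and 2.98 in B16F10.

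By the likeness of log2 CPM over the 8 group means, among 14974 genes, the closest to Tlr3 were Ifi35 (Pearson r = 0.993) and Qpctl (r = 0.991). The closest to Myd88 were Etnk1 (r = 0.990) and H2-Q4 (r = 0.987), those to Tlr2 were Tmeff2 (r = 0.986) and Plin2 (r = 0.981), and those to Tlr4 were Gm17259 (r = 0.931) and Tmem147os (r = 0.921). Ifi35, an interferon-induced gene, went from 35.4 CPM with vehicle to 194.8 and 294.5 CPM with IFNγ and IFNβ in B16F10, and from 9.11 to 77.9 and 225.4 CPM in 6694c2. As for Tlr3, both lines had the highest level with IFNβ and the next highest with IFNγ. These values rest on 8 points that share the libraries, and Gm17259 has means under 1 CPM. Pearson r does not measure the size of a change, since group means of Qpctl ran from 11.9 to 18.6 CPM and those of Tlr3 from 4.42 to 167 CPM. Tlr2 has too few reads in the B16F10 groups.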

How the data were processed

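Whole-gene counts, 1 file per library, were deposited by the authors: per the labels and the study's methods, reads were trimmed with cutadapt 1.14, aligned with STAR 2.7.9a to mm10 (GRCm38) and counted with Rsubread. The annotation and the use of strand are not given in the sources used here. Of 49315 genes, 21138 with at least 10 reads over the 24 libraries were tested. Symbols were found for 48970 genes. Counts were tested with edgeR 4.0.16 (R 4.3.3), by the quasi-likelihood test with TMM scaling and group means, on the 12 libraries of a line for treatments and on all 24 for differences between lines, with Benjamini-Hochberg adjustment over all genes and calls at an adjusted p under 0.05. The study used DESeq2, which was an alternative here (1.42.0). SE and 95% intervals come from the fitted model. CPM use TMM over all 24 libraries, and FPKM divide them by the exon length in the files. Motifs were searched on RefSeq promoters. An allele of the 6694c2 line and a planned motif are not reported here. Scripts were tested on simulated data.

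The members and gene lists were chosen with earlier results of these data known. All 8 members are named, and a member had too few reads in a line when its mean count was under 10 in all 4 groups. Of the 51 other pathway genes, called genes past 1 on the log2 scale, up to 6 per comparison, were named by rule, and Tlr1, Ly96, Tirap, Tbk1, and the genes that overlap a member were added after their values were seen, as was Nfkb1. Genes of like pattern, with at least 10 reads on average in a group, were ranked by Pearson r with a prior count of 2. Nothing in the labels says that the 3 libraries of a group came from separate cultures, so p-values measure the spread between these libraries, which may be technical. Replicates correlated at r = 0.9970 to 0.9986, and all pairs differed by more than sampling noise. Alternatives were DESeq2, RLE scaling, a stricter and no filter, a replicate block, a robust fit, the compared groups only, subtraction of the other line's signal and each library left out. The 6 single-cell samples were not analysed here.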

Additional observations from a re-analysis of the deposited data

Results flagged for a closer look

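Within these genes, 6 effects differed between the lines by the interaction term (6694c2 minus B16F10, edgeR quasi-likelihood test, log2 scale). For IFNγ these were Tlr4 (0.5929, opposite directions in the lines), Irak2 (0.5855, higher in both) and Unc93b1 (-1.747, higher in B16F10 and not called in 6694c2). For IFNβ it was Tlr3 (1.4524). For STING agonist they were Tlr3 (-0.7764) and Cd14 (-3.3809), the latter from 2 reads against 21 in B16F10, and its difference was not called once the signal of the other line was subtracted.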

How the results depend on the processing

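Of 43 called values of the members, 37 kept their direction and call under every alternative. The others were Tlr4 with IFNγ in B16F10, Tlr2 with IFNγ and Tlr2 between the interferons in 6694c2, Irak2 with IFNβ in 6694c2, and the STING differences between the lines for Tlr3 and Cd14. The cause was not tested. For counts of members called, STING agonist in B16F10 gave 1, and 2 under the filterByExpr minimum and with the compared groups only (1 to 2 when leaving out 1 library), with Cd14 added. The IFNβ difference between the lines gave 1, and 1 to 3 when leaving out 1 library. It gave 3 with DESeq2, beside 3120 of 12532 genes, and 3 with the filterByExpr minimum, beside 2856 of 14997 genes. The STING difference between the lines gave 2, and 1 with the other line's signal subtracted (1 to 2 when leaving out 1 library). For the other pathway genes, STING agonist in B16F10 gave 2, then 1 with DESeq2, 1 with the replicate block and 0 with the subtraction (0 to 1 when leaving out 1 library). Subtraction turned the log2 change of Cd14 with IFNγ in B16F10 to -1.8682, its difference between the lines to 2.5391, and the IFNβ difference of Unc93b1 to 0.0654, none of them called. Uncalled log2 values near 0 also changed sign when leaving out 1 library: with STING agonist in B16F10, Tlr4 (-0.0407 to 0.0849) and Unc93b1 (-0.0114 to 0.2609), in 6694c2 Unc93b1 (-0.142 to 0.282), for IFNβ over IFNγ, Tlr4 in B16F10 (-0.0413 to 0.1253) and Myd88 (-0.042 to 0.003) and Ticam1 (-0.0515 to 0.0655) in 6694c2, and between the lines Cd14 with IFNγ (-2.7727 to 0.4214), Tlr4 (-0.0767 to 0.1375) and Unc93b1 (-0.1844 to 0.2315) with IFNβ, Unc93b1 with STING agonist (-0.2785 to 0.1377) and Tlr4 with vehicle (-0.1154 to 0.0315). Where a group keeps 2 libraries the pooled spread of the others is assumed.

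Libraries of the same number did not evidently deviate together (correlation -0.146 to 0.185 in B16F10 and -0.276 to 0.243 in 6694c2). Libraries of different number spanned -0.171 to 0.181 in B16F10 and -0.385 to 0.354 in 6694c2. These few correlations cannot show that the libraries were unpaired, and the labels do not say. The replicate block changed no member's call. Depth limits Tlr2 and Cd14 in B16F10 and Unc93b1 in 6694c2, where intervals are wide.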
